A study of Mus musculus with 4 samples.

Results

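FOXO transcription factors and the PI3K-AKT enzymes that hold them in check were read in RNA from HSCs with and without *Id2*. The 8 genes are *Foxo1*, *Foxo3*, *Foxo4*, *Pik3ca*, *Pik3r1*, *Inpp5d*, *Akt1* and *Tsc1*, chosen by symbol, and each had 1 row among the 19354 genes of the deposited table. All 8 were above the filter of a mean of at least 1 CPM (read counts scaled to a fixed library total) that left 15895 genes for testing. HSCs were sorted as LSK FLT3- CD48- CD150+ bone marrow cells from *Mx1-Cre* *Id2+/+* and *Mx1-Cre* *Id2Fl/Fl* mice aged 8 to 16 weeks, both given pIpC, and 2 weeks later the floxed gene had been removed to give *Id2Δ/Δ* cells. Cells were pooled from 14 *Id2+/+* and 15 *Id2Fl/Fl* mice over 2 experiments, and each genotype gave 2 libraries. *Mx1-Cre* is driven by an interferon-responsive promoter that is not restricted to HSCs, so other cells of these animals also lose the gene, and the control mice carry the same transgene and received the same pIpC.

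PI3K turns the membrane lipid PIP2 into PIP3, which brings AKT to the membrane, where it is activated. AKT then phosphorylates FOXO proteins, which leave the nucleus bound to 14-3-3 proteins, and it also inactivates the TSC complex and so releases mTORC1. In quiescent HSCs, FOXO proteins stay nuclear and switch on genes for cell-cycle arrest, antioxidant defence and autophagy. Mice that lack FOXO factors or TSC1 in blood cells are known to lose HSC quiescence. This control acts largely on proteins, which were not measured here.

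The libraries held 14200000 to 18800000 reads. The targeted gene was read first, with 93 and 98 reads of *Id2* in the *Id2+/+* libraries and 0 reads in both *Id2Δ/Δ* libraries, which makes it at least 38.5-fold lower when 3 reads are taken as the limit of a count of 0 in each library. All 9 HSC markers on a fixed list were present, and together they reached 4421 to 4509 CPM in *Id2+/+* HSCs but 3068 to 3640 CPM in *Id2Δ/Δ* HSCs. *Cd79a*, *Pax5*, *Ebf1*, *Cd3d*, *Cd3e*, *Cd3g* and *Adgre1*, markers of B cells, T cells and macrophages, had no row, while other markers of these cells did. The markers present summed to 33.6 to 51.0 CPM for B cells (2 of 5 listed), 22.7 to 26.2 CPM for T cells (2 of 5), 184 to 244 CPM for monocytes and macrophages (4 of 5), 25.3 to 39.3 CPM for erythroid cells (6 of 7) and 459 to 598 CPM for megakaryocytes (6 of 6). All 7 neutrophil markers were present. They summed to 141 and 51.9 CPM in *Id2+/+* replicates 1 and 2 and to 108 and 25.7 CPM in *Id2Δ/Δ* replicates 1 and 2. Replicate 1 was thus the higher library in both genotypes. In bulk RNA, fewer cells of a type and less RNA per cell cannot be told apart.

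Promoter sequence is shown for the 3 genes whose libraries did not overlap between the genotypes, *Foxo1*, *Foxo3* and *Inpp5d*. ID proteins are known for keeping E proteins from binding the E box, CANNTG, which reads the same on both strands, and E boxes are in capitals. The stretches are the 250 bases before the RefSeq start on GRCm38.p6, written 5′ to 3′ on the strand of the gene: chr3:52268087-52268336 (+) for *Foxo1*, chr10:42276696-42276945 (-) for *Foxo3* and chr1:87620062-87620311 (+) for *Inpp5d*.
Foxo1: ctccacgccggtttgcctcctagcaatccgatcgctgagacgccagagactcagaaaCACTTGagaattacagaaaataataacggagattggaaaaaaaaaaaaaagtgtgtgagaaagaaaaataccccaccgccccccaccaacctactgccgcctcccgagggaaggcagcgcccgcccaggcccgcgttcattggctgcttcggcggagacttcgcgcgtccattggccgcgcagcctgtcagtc
Foxo3: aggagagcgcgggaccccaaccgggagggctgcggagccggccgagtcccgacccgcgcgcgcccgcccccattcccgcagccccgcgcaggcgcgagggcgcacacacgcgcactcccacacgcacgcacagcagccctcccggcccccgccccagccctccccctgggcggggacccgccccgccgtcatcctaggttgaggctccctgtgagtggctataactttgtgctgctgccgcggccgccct
Inpp5d: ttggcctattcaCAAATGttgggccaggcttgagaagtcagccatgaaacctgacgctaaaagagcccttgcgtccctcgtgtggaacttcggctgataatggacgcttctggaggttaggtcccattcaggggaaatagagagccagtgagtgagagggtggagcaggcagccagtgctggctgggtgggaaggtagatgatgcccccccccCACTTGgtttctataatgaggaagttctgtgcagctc

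The *Foxo1* window held 1 E box, the *Inpp5d* window 2 and the *Foxo3* window 0. Of 32851 such windows in the RefSeq table, 66.2% hold at least 1. GTAAACA, the core that FOXO factors recognise, was searched on both strands and was in none of the 3 windows. Among the other windows of these genes it was found in 1 of the 2 windows of *Akt1*, where 3.17% of all windows hold it, and it did not overlap an E box there. Of the 8 genes, 7 matched by symbol, and *Foxo4* had no entry.

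*Foxo1* was the gene of the 8 with the clearest difference between genotypes. It was at 5.92 and 5.63 log2 CPM in *Id2+/+* replicates 1 and 2 and at 5.05 and 5.47 log2 CPM in *Id2Δ/Δ* replicates 1 and 2. The genotypes did not overlap, *Id2Δ/Δ* HSCs being lower, and the lowest value was that of *Id2Δ/Δ* replicate 1. The mean was 5.78 ± 0.20 (SD, n = 2) against 5.26 ± 0.29 (SD, n = 2), a 1.43-fold lower level. In limma, fitted across all 15895 genes with a Benjamini-Hochberg adjustment, the log2 fold change was -0.52 (standard error 0.20, 95% interval -0.99 to -0.05, unadjusted p = 0.0349, adjusted p = 0.910). None of the 8 genes had an adjusted p-value under 0.05, like the 0% of all genes tested. At an unadjusted p-value under 0.05 there was 1 of 8, *Foxo1*, against 4.67% of all genes, of which 1.72% were higher and 2.95% lower in *Id2Δ/Δ* HSCs. The study names *Foxo1* from these same libraries, so its place among the 8 is not independent evidence of its direction.

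The size of the *Foxo1* difference depended on single libraries. Without *Id2Δ/Δ* replicate 1 the log2 fold change was -0.31 (unadjusted p = 0.153, limma) and without *Id2+/+* replicate 1 it was -0.37 (unadjusted p = 0.241, limma). Without *Id2+/+* replicate 2 and without *Id2Δ/Δ* replicate 2 it was -0.66 and -0.73, with unadjusted p-values of 0.0556 and 0.0131 from limma. The annotation gives *Foxo1* (ENSMUSG00000044167.6, chr3:52268336-52353221, plus strand, GRCm38) 1 transcript of 8665 bases, and levels in *Id2Δ/Δ* HSCs tended to be lower the longer the transcript. The trend with length across all genes was -0.13 at the length of *Foxo1*, and with each library corrected for it the log2 fold change of *Foxo1* was -0.38 (unadjusted p = 0.0932, limma). The 9 HSC markers, *Kit* among them, had a median log2 fold change of -0.23. Of these markers, 5 were lower and 1 higher without overlap, against 15.8% and 19.0% of all tested genes. An unadjusted p-value under 0.05 in limma was found for 4 of the 9, against 4.67% of all tested genes. The part of these markers in the *Foxo1* difference was not tested.

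An antisense gene, *Gm20402* (ENSMUSG00000092405.1), covers 674 of the 8665 exonic bases of *Foxo1* on the opposite strand. The longest transcript of *Gm20402* itself is only 687 bases. Its read counts were 78 and 98 with *Id2* and 53 and 84 without. Its values were 2.43 and 2.63 against 1.57 and 2.27 log2 CPM, so its *Id2Δ/Δ* libraries were both lower too (log2 fold change -0.61, standard error 0.40, adjusted p = 0.910, limma). Whether reads were counted by strand is not given in the sources used here, so reads over the shared bases cannot be told apart between *Foxo1*, which had about 590 to 860 reads, and *Gm20402*. No other of the 8 genes shares exonic bases with another annotated gene.

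**Figure D1:**
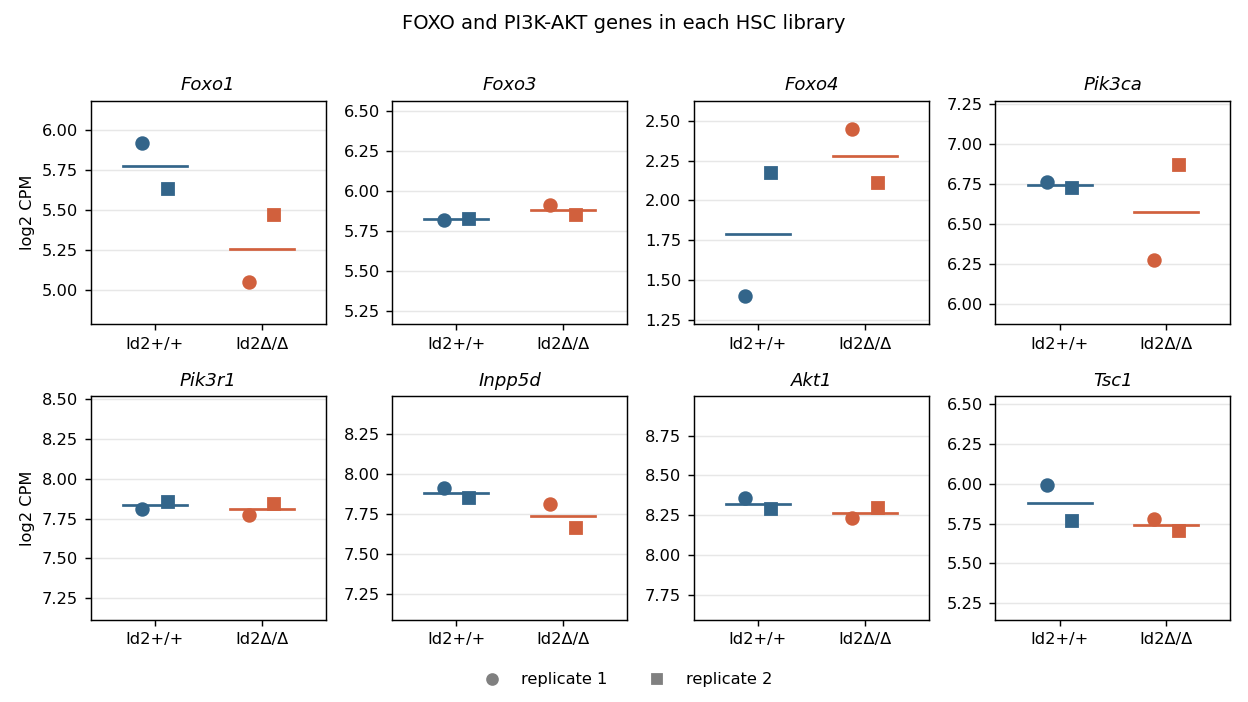
Level of each of the 8 genes in log2 CPM (vertical axis) in the 2 *Id2+/+* and 2 *Id2Δ/Δ* libraries, with circles for replicate 1, squares for replicate 2 and bars for the mean of a genotype. Every panel spans the same range of log2 units, so that *Foxo1*, *Foxo4* and *Pik3ca* can be seen to vary most between libraries and *Foxo3*, *Pik3r1* and *Akt1* least.

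*Foxo3*, the FOXO factor best known for keeping adult HSCs, was nearly level. It stood at 5.82 log2 CPM in both *Id2+/+* libraries and at 5.91 and 5.85 log2 CPM in *Id2Δ/Δ* replicates 1 and 2. Both *Id2Δ/Δ* values were above both *Id2+/+* values, by at most 0.09, and the difference was no larger than the gap of 0.06 between the *Id2Δ/Δ* libraries. The log2 fold change was 0.06 (standard error 0.14, 95% interval -0.28 to 0.39, adjusted p = 0.956, limma). After the correction for length it was 0.16.

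*Foxo1* was set against *Foxo3* inside each library, so that the scaling of a library cancels. The log2 level of *Foxo1* minus that of *Foxo3* was 0.10 and -0.19 in *Id2+/+* replicates 1 and 2 and -0.86 and -0.38 in *Id2Δ/Δ* replicates 1 and 2. Both *Id2Δ/Δ* values were lower than both *Id2+/+* values. Per kilobase, which moves every library by the same amount, the values were -0.24 and -0.53 against -1.20 and -0.72, so *Foxo3* was the higher of the pair in all 4 libraries. The means were -0.05 ± 0.20 (SD, n = 2) and -0.62 ± 0.34 (SD, n = 2), a difference of -0.58. An exact two-sided permutation test gave p = 0.33, which is the smallest that 2 libraries against 2 allow. Leaving out each library in turn gave differences between -0.81, without *Id2Δ/Δ* replicate 2, and -0.34, without *Id2Δ/Δ* replicate 1.

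*Foxo4*, on the X chromosome, was the scarcest of the 8 genes, with 39 and 72 reads in the *Id2+/+* libraries and 97 and 75 reads in the *Id2Δ/Δ* libraries. Its values were 1.40 and 2.17 against 2.45 and 2.11 log2 CPM, with overlapping genotypes, and *Id2+/+* replicate 1 stood below the rest while the other 3 libraries lay close together. The log2 fold change was 0.49 (standard error 0.44, 95% interval -0.53 to 1.52, adjusted p = 0.910, limma), and without *Id2+/+* replicate 1 it was 0.11. *Foxo6*, the remaining member of the family, which is known mainly from brain, had 3 and 7 reads against 8 and 6 and was under the filter.

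**Figure D2:**
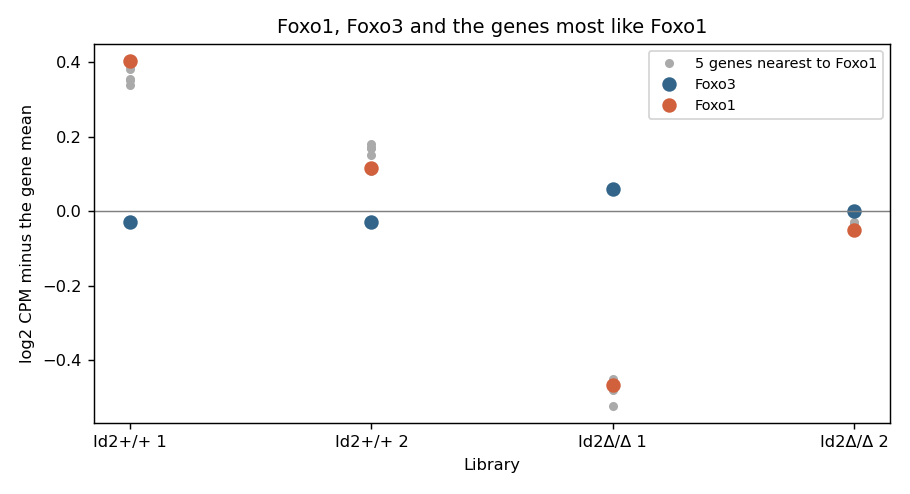
Deviation of *Foxo1* (orange), *Foxo3* (blue) and the 5 genes whose pattern was nearest to that of *Foxo1* (grey) from each gene's mean, in log2 CPM, in the 4 libraries. *Foxo1* spans 0.87 from the highest to the lowest library and *Foxo3* spans 0.09.

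By the Euclidean distance between the 4 deviations from the gene mean, over the 7377 genes that averaged 32 CPM or more, the nearest genes to *Foxo1* were *Arhgap21* (0.017), *Gbe1* (0.063), *Ermp1* (0.081), *Avl9* (0.083) and *Tmem80* (0.086). The median distance over these genes was 0.67 and that of *Foxo3* was 0.70. With 4 libraries the measure rests on few points and is a description only. Of the 8 genes, *Foxo4* averaged under 32 CPM and was not ranked. Among the others, *Pik3ca* was the nearest to *Foxo1*, at a distance of 0.41 and rank 577.

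The subunits of PI3K came next. *Pik3ca*, which encodes the catalytic subunit p110α, was at 6.76 and 6.73 log2 CPM in the *Id2+/+* libraries and at 6.28 and 6.87 log2 CPM in *Id2Δ/Δ* replicates 1 and 2. The *Id2Δ/Δ* libraries thus lay on both sides of the *Id2+/+* libraries and were 0.59 apart. The log2 fold change was -0.17 (standard error 0.20, 95% interval -0.63 to 0.29, adjusted p = 0.924, limma). Its direction turned on 1 library, with -0.47 without *Id2Δ/Δ* replicate 2 and 0.13 without *Id2Δ/Δ* replicate 1. *Pik3r1* encodes the regulatory subunits that hold p110 stable and quiet until a receptor recruits them. It was among the steadiest of the 8 genes, at 7.81 and 7.86 against 7.77 and 7.84 log2 CPM, with overlapping libraries and a difference of -0.02 on the log2 scale (standard error 0.11, 95% interval -0.28 to 0.23, adjusted p = 0.977, limma).

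*Inpp5d* encodes SHIP1, the blood cell phosphatase that removes the 5-phosphate of PIP3. It was at 7.91 and 7.85 log2 CPM in the *Id2+/+* libraries and at 7.81 and 7.66 log2 CPM in *Id2Δ/Δ* replicates 1 and 2. Both *Id2Δ/Δ* libraries were lower, the nearest by a small margin, and the log2 fold change of -0.14 (standard error 0.11, 95% interval -0.41 to 0.13, adjusted p = 0.910, limma) was smaller than the gap of 0.15 between the *Id2Δ/Δ* libraries. It was -0.07 without *Id2Δ/Δ* replicate 2 and -0.22 without *Id2Δ/Δ* replicate 1. *Akt1*, the kinase that carries the signal on to FOXO and TSC, was the most abundant of the 8 genes, also per length. It stood at 8.36 and 8.29 against 8.23 and 8.29 log2 CPM, with overlapping libraries and a difference of -0.06 on the log2 scale (standard error 0.10, 95% interval -0.30 to 0.18, adjusted p = 0.942, limma). *Tsc1*, the partner that stabilises TSC2 in the brake on mTORC1, was at 5.99 and 5.77 against 5.78 and 5.70 log2 CPM. *Id2+/+* replicate 1 was high and the other 3 libraries were close together, and the log2 fold change came to -0.14 (standard error 0.16, 95% interval -0.50 to 0.23, adjusted p = 0.924, limma).

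On GRCm38, *Foxo3* (ENSMUSG00000048756.11) is annotated at chr10:42181841-42276755 (-), *Foxo4* (ENSMUSG00000042903.8) at chrX:101254528-101260873 (+) and *Pik3ca* (ENSMUSG00000027665.13) at chr3:32397671-32468486 (+). *Pik3r1* (ENSMUSG00000041417.15) lies at chr13:101680563-101768217 (-), *Inpp5d* (ENSMUSG00000026288.14) at chr1:87620312-87720507 (+), *Akt1* (ENSMUSG00000001729.14) at chr12:112653821-112674884 (-) and *Tsc1* (ENSMUSG00000026812.16) at chr2:28641228-28691167 (+). All have several annotated transcripts except *Foxo1*, and the table sums them per gene.

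Across the 8 genes, 6 had a log2 fold change below 0 and 2 above 0, with a median of -0.10, where the median over all tested genes was 0.01. Libraries of the genotypes did not overlap for 3 of 8 genes, *Foxo1*, *Foxo3* and *Inpp5d*, against 34.8% of all genes tested. In 7 of 8 the larger gap between the replicates of a genotype exceeded the difference between genotypes, and *Foxo1* was the exception. *Foxo1*, *Foxo3*, *Pik3ca*, *Pik3r1* and *Tsc1* have longest transcripts of 6848 to 8917 bases, where the median over all tested genes is 2955 bases. The trend with length was below 0 at the lengths of all 8 genes, so the length correction raised every log2 fold change. It brought *Pik3ca*, *Tsc1* and *Inpp5d* to log2 fold changes of -0.03, -0.02 and -0.08 and turned *Pik3r1* to 0.08. *Foxo3* moved away from 0, from 0.06 to 0.16. A part of length in these differences was not tested.

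**Figure D3:**
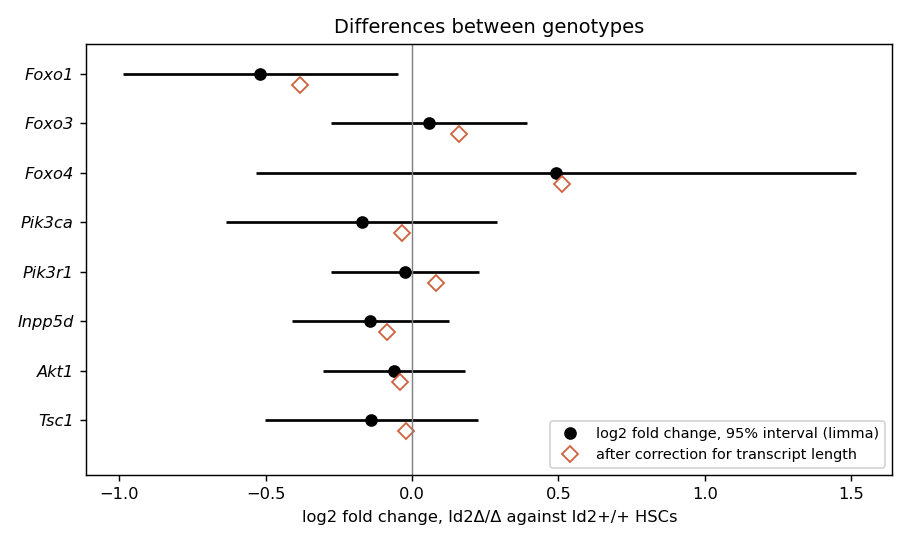
Log2 fold change between *Id2Δ/Δ* and *Id2+/+* HSCs (horizontal axis) of the 8 genes, as black points with the 95% interval from limma, and after each library was corrected for the trend with transcript length (open diamonds, no interval drawn). The interval of *Foxo1* alone leaves out 0, from -0.99 to -0.05 before adjustment for the number of genes tested.

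Levels were compared between genes per kilobase of the longest annotated transcript, on the log2 scale. *Akt1* was highest at 6.86 ± 0.05 log2 CPM per kilobase (SD over 4 libraries), followed by *Inpp5d* at 5.51 ± 0.11 and *Pik3r1* at 4.99 ± 0.04. These 3 genes kept that order in each of the 4 libraries, with ranges that did not overlap. *Pik3ca* (3.50 ± 0.26), *Foxo3* (3.08 ± 0.04), *Tsc1* (2.86 ± 0.13) and *Foxo1* (2.40 ± 0.36) followed, and neighbours in this middle group had overlapping ranges, with *Pik3ca* above *Foxo3* and *Foxo3* above *Tsc1* in 3 of 4 libraries each and *Tsc1* above *Foxo1* in all 4. *Foxo4* was lowest at 0.37 ± 0.44, apart from *Foxo1* in all 4 libraries. The longest transcript need not be the one these cells use, so the levels per kilobase are approximate.

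**Figure D4:**
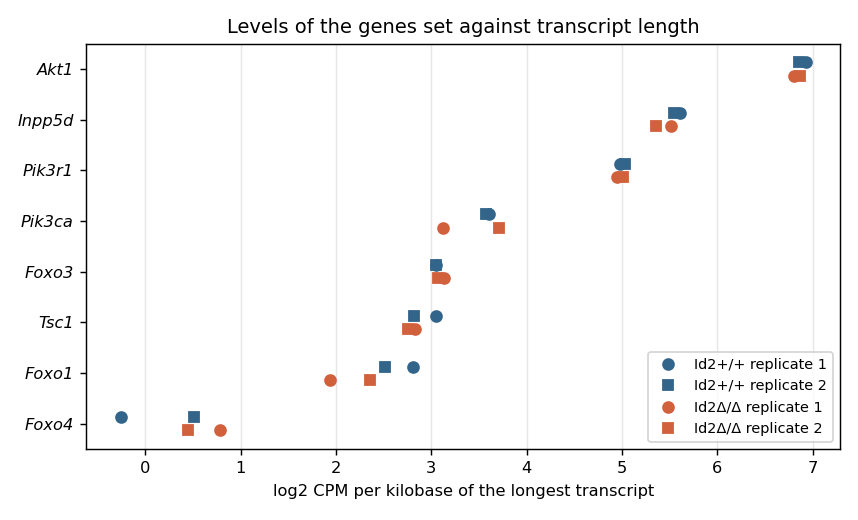
Level of the 8 genes in log2 CPM per kilobase of the longest annotated transcript (horizontal axis), with 1 symbol per library, blue for *Id2+/+* and orange for *Id2Δ/Δ*. *Akt1*, *Inpp5d* and *Pik3r1* lie apart from one another and above the rest, and *Foxo4* lies apart below.

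The wider pathway was read from 9 lists by role. Together they name 97 further genes, of which 89 were tested. None of these 89 had an adjusted p-value under 0.05 in limma, and 4, with *Inppl1*, *Rictor* and *Kit* among them, had an unadjusted p-value under 0.05, all lower in *Id2Δ/Δ* HSCs, where 2.95% of all tested genes were lower at that limit. Libraries did not overlap for 10 genes that were higher and 19 that were lower, against 19.0% and 15.8% of all tested genes in those directions. The median log2 fold change was -0.06, and the median length trend at the lengths of these genes was -0.05.

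Of 8 tested class I PI3K genes, counting *Pik3ca* and *Pik3r1*, 7 were below 0 and 1 above, with a median log2 fold change of -0.15. Without overlap, 2 were lower and 0 higher, 25% of the list against 34.8% of all tested genes. The blood cell subunits *Pik3cg* (p110γ) and *Pik3cd* (p110δ) were the most abundant. *Pik3cg* was at 8.11 and 7.86 against 7.79 and 7.73 log2 CPM and was lower in both *Id2Δ/Δ* libraries (log2 fold change -0.23, standard error 0.12, adjusted p = 0.910, limma), by -0.10 without *Id2+/+* replicate 1. *Pik3cd* was at 7.98 and 7.97 against 7.68 and 8.00 log2 CPM, with *Id2Δ/Δ* replicate 1 apart from the rest, like *Pik3ca*. Without that library the median of the list was 0.02, so the sign of the list median turned on that library.

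Among 9 genes that oppose PI3K or AKT, counting *Inpp5d*, 6 were below 0 and 3 above, with a median of -0.14, and 4 were lower and 1 higher without overlap, 55.6% against 34.8% of all tested genes. *Inppl1*, which encodes SHIP2, the more widely expressed relative of SHIP1, was at 4.90 and 4.72 log2 CPM in the *Id2+/+* libraries and at 3.61 and 4.45 log2 CPM in *Id2Δ/Δ* replicates 1 and 2. In limma *Inppl1* differed by -0.78 on the log2 scale (standard error 0.30, adjusted p = 0.910, unadjusted p = 0.0312), and by -0.36 without *Id2Δ/Δ* replicate 1. On the higher side, *Inpp5k*, another 5-phosphatase, was at 7.25 and 7.24 against 7.31 and 7.39 log2 CPM. Without *Id2Δ/Δ* replicate 2 the median of this list was 0.07, so its sign depended on that library.

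Of 9 genes for AKT kinases and the kinases that activate them, counting *Akt1*, 4 were above 0 and 5 below, with a median of -0.06. Libraries did not overlap for 1 gene, 11.1% of this list against 34.8% of all tested genes. That gene was *Rictor*, the defining subunit of mTORC2, which phosphorylates AKT. It was at 6.80 and 6.53 log2 CPM in the *Id2+/+* libraries and at 6.13 and 6.24 log2 CPM in the *Id2Δ/Δ* libraries. For *Rictor*, limma gave a log2 fold change of -0.48 (standard error 0.15, adjusted p = 0.910, unadjusted p = 0.0135). After the length correction the log2 fold change of *Rictor* was -0.34 (unadjusted p = 0.0581, limma). *Akt2*, at 7.21 and 7.16 against 6.78 and 7.38 log2 CPM, had *Id2Δ/Δ* libraries on both sides of the *Id2+/+* libraries. In the TSC-mTORC1 arm, 11 genes were tested with *Tsc1*, 4 above 0 and 7 below, with a median of -0.06 and log2 fold changes of -0.14 to 0.25. The partner gene *Tsc2* was at 7.13 and 7.03 against 7.24 and 7.08 log2 CPM, with overlapping libraries. *Akt1s1*, which encodes the mTORC1 inhibitor PRAS40, and *Rps6kb1*, which encodes S6 kinase, had log2 fold changes of 0.13 and -0.13 without overlap.

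**Figure D5:**
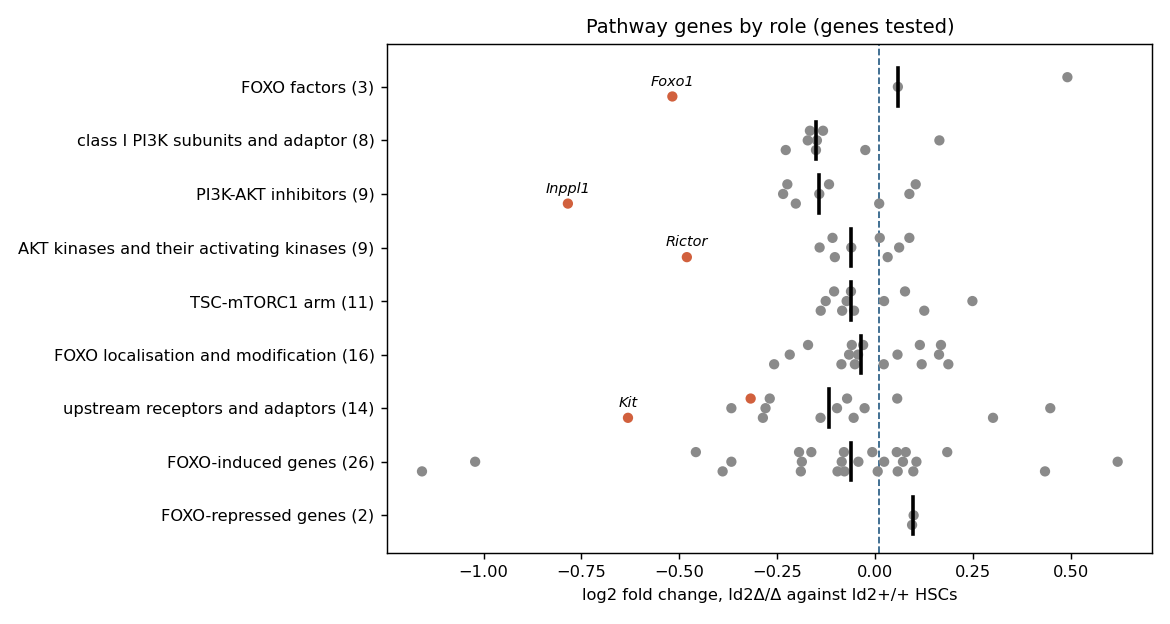
Log2 fold change between *Id2Δ/Δ* and *Id2+/+* HSCs (horizontal axis) of every tested gene in 9 lists by role, with the number tested in brackets, list medians as black bars and the median of all tested genes, 0.01, as a dashed line. Orange points are the 5 genes with an unadjusted p-value under 0.05, 4 of them named and all below 0, and none had an adjusted p-value under 0.05.

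Of the genes in these lists, the receptor gene *Kit* had the smallest p-value. *Kit*, the receptor for stem cell factor, was at 11.08 and 10.93 log2 CPM in the *Id2+/+* libraries and at 10.19 and 10.55 log2 CPM in *Id2Δ/Δ* replicates 1 and 2 (log2 fold change -0.63, standard error 0.13, adjusted p = 0.910 in limma, unadjusted p = 0.0017). Like *Foxo1*, *Kit* was lowest in *Id2Δ/Δ* replicate 1. *Gab2*, an adaptor that recruits PI3K, lay on the other side, at 5.53 and 5.30 against 6.12 and 5.61 log2 CPM (log2 fold change 0.45, standard error 0.21, adjusted p = 0.910, limma), and its log2 fold change was 0.19 without *Id2Δ/Δ* replicate 1. Of the 14 tested genes in this list, 11 were below 0, with a median of -0.12. Without overlap, 4 were lower and 1 higher, 35.7% in all, close to the 34.8% of all tested genes.

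The list of proteins that carry or modify FOXO had 16 tested genes, 9 below 0 and 7 above, with a median of -0.04. Without overlap, 4 were higher and 2 lower, 37.5% in all against 34.8% of all tested genes. Its 14-3-3 genes, singled out after their values were seen, are given for their values only. *Ywhab*, *Ywhae*, *Ywhah* and *Ywhaq* were higher without overlap, at log2 fold changes of 0.11 to 0.19. *Ywhaz* and *Ywhag* were at -0.06 and -0.04 with overlapping libraries. Thus 4 of these 6 genes were higher without overlap, 66.7% against 19.0% of all tested genes. *Ywhaq* was at 7.43 in both *Id2+/+* libraries and at 7.69 and 7.55 log2 CPM in the *Id2Δ/Δ* libraries (log2 fold change 0.19, standard error 0.12, adjusted p = 0.910, limma). *Ywhab* was at 8.54 and 8.55 against 8.73 and 8.60 log2 CPM. *Ep300*, an acetyltransferase that acts on FOXO proteins and histones, was lower in both *Id2Δ/Δ* libraries, by a log2 fold change of -0.26 (standard error 0.12, adjusted p = 0.910, limma) that was -0.11 after the length correction.

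Genes that FOXO factors are known to induce lay on both sides of 0. Of 26 tested, 15 were below 0 and 11 above, with log2 fold changes of -1.16 to 0.62 and a median of -0.06, and 5 were lower and 3 higher without overlap, 30.8% in all against 34.8% of all tested genes. *Gadd45a*, a growth arrest and DNA repair gene, was at 3.53 and 3.52 log2 CPM in the *Id2+/+* libraries and at 3.10 and 3.02 log2 CPM in the *Id2Δ/Δ* libraries (log2 fold change -0.46, standard error 0.26, adjusted p = 0.910, limma). *Bcl2l11*, which encodes the death-promoting protein BIM, was at 4.33 and 4.41 against 4.62 and 4.99 log2 CPM (log2 fold change 0.43, standard error 0.21, adjusted p = 0.910, limma), and differed by 0.25 without *Id2Δ/Δ* replicate 2. The most abundant targets, *Txnip* and *Map1lc3b*, had log2 fold changes of 0.01 and -0.08. *Ccnd1* and *Ccnd2*, cyclins that FOXO factors repress, were at 0.10 and 0.09 with overlapping libraries.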

How the data were processed

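RNA of sorted HSCs was measured by RNA-Seq in 2 *Id2+/+* and 2 *Id2Δ/Δ* libraries. The authors deposited log2 CPM values for each gene and library, quantile-normalized between libraries. This unit was read from the values, whose columns sum to 999980 to 999996 CPM and share a median of 3.92. The submitters' notes name CASAVA 1.8.4, Trimmomatic 0.30, TopHat2 2.0.8, RSEM, STAR and the builds mm9 and NCBIM37 without their roles. Strand use and gene filter are not given in the sources used here.

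Ensembl identifiers of 99.7% of genes, and the same version for 82.0%, were found in GENCODE M21 (GRCm38), which gave coordinates and lengths. Below 32 CPM, the rank of a distinct value in a library gives its reads, and depth was the median of (reads + 0.5) / CPM over log2 values of 1 to 5. Counting error is the only error that the limit of 3 reads covers.

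Genes averaging 1 CPM or more were compared on the log2 values with limma 3.58.1 in R 4.3.3 (lmFit and eBayes, trend = TRUE), with a two-sided test of genotype and no covariate, and p-values were adjusted by Benjamini-Hochberg over 15895 genes. The test was checked on simulated data. The length correction took off a natural spline with 5 degrees of freedom in log2 transcript length from each library. Other genes were named by a rule, namely those with an unadjusted p-value under 0.05, the largest difference in each direction without overlap and the 2 most abundant of each list, and the 5 genes nearest to *Foxo1*. Some genes that this rule or the lists hold are not reported here by name. The genes and lists were chosen with earlier results of these data known. Since nothing ties a library to particular mice or to an experiment, p-values measure only the spread between these libraries, which may be partly technical. Alternatives varied the scale, scaling, filter, trend, length correction, replicate number and libraries used.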

Additional observations from a re-analysis of the deposited data

How the results depend on the processing

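No gene of the 8 and none of the 89 further pathway genes had an adjusted p-value under 0.05 in limma with log2(CPM + 1), a further quantile normalization, median-ratio rescaling, no filter, a mean of at least 10 CPM, no intensity trend, the length correction, the replicate block, the replicate block with the length correction, or with any 1 library left out, and none of the 8 passed 0.1. At an unadjusted p-value under 0.05, the count of 1 among the 8 became 0 without the intensity trend, with the length correction and under the replicate block with the length correction, and 0 to 2 when 1 library was left out, 2 without *Id2Δ/Δ* replicate 2 and 0 without any of the other 3. The count of 4 among the 89 became 2 without the intensity trend, 7 under the replicate block, 7 under the replicate block with the length correction, and 1 to 17 with 1 library left out, the most without *Id2Δ/Δ* replicate 2. The labels do not say that a replicate number marks an experiment, and deviations of same-numbered libraries correlated at 0.059 over 15895 genes and at 0.144 over the 7377 genes of at least 32 CPM. With 2 pairs this does not establish pairing, so the numbers were not taken to pair the libraries. With 1 library left out, the lone library was assumed to vary like the other genotype. The causes of these changes were not tested.

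The sign of some log2 fold changes turned. *Pik3r1* was at 0.083 with the length correction, alone or with the replicate block, and *Txnip* at -0.0058 after median-ratio rescaling. With 1 library left out, ranges that crossed 0 were -0.057 to 0.0081 for *Pik3r1*, -0.47 to 0.13 for *Pik3ca*, -0.29 to 0.030 for *Pik3cd*, -0.40 to 0.20 for *Akt2*, -0.0038 to 0.16 for *Tsc2*, -0.061 to 0.075 for *Txnip* and -0.35 to 0.54 for *Ccnd1*. List medians also crossed 0, to 0.0035 for the TSC-mTORC1 arm without *Id2Δ/Δ* replicate 2, 0.045 for FOXO localisation without *Id2Δ/Δ* replicate 1 and -0.15 for FOXO-repressed genes without *Id2Δ/Δ* replicate 1. With the length correction they were 0.024 for AKT kinases, 0.029 for FOXO localisation and 0.003 for FOXO-induced genes, and with a mean of at least 10 CPM, which leaves fewer genes, -0.23 for FOXO factors. *Foxo1* stayed below 0 in every fit, from -0.73 to -0.31.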
